A study of Mus musculus with 4 samples.

Results

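The genes of cytosolic and mitochondrial chaperones were taken from the table by symbol. They were all Dnaja, Dnajb and Dnajc genes (J proteins), the HSP70, HSP110, small HSP, HSP60, HSP10 and cytosolic HSP90 genes, the TRiC subunits Tcp1 and Cct2 to Cct8, and Bag3, Chordc1, Hsf1, Hsf2 and Trap1, with pseudogenes and the ER lumen genes Hspa5, Dnajb11 and Dnajc3 left out. This gave 84 of the 27179 genes in the table. At least 1 read was counted on 77 of them, and 66 had a mean of at least 1 CPM (counts per 1e6 counts of the library, TMM-normalized) and entered the test. The symbols also took in J proteins that sit in the ER or its membrane, so not every gene in the set is cytosolic or mitochondrial. The 7 listed as such here were Dnajb9, Dnajb12, Dnajb14, Dnajc1, Dnajc10, Dnajc18 and Dnajc25, with Hspa13 added as ER-associated. This ER list and the mitochondrial list used below may not be complete.

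Molecular chaperones help proteins of the cytosol, nucleus and mitochondria to fold, to cross membranes and to stay soluble under stress. HSP70 proteins bind short hydrophobic stretches in cycles that J proteins start and HSP110 proteins reset, HSP90 proteins finish the folding of kinases and receptors, and the ring-shaped chaperonins TRiC (cytosol) and HSP60 (mitochondria) fold proteins inside a chamber. Many of these genes are targets of the transcription factor HSF1, which becomes active when unfolded proteins occupy the chaperones that hold it.

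The mRNA came from group 2 innate lymphoid cells (ILC2s), lymphocytes without antigen receptors that release IL-5 and IL-13, sorted from the large intestine of C57BL/6 WT mice. All cells were cultured for 5 days with the cytokines IL-33, IL-25, IL-7 and IL-2, each at 10 ng/mL. They then received vehicle (2 libraries) or 100 μM deoxycholic acid (DCA, 2 libraries), a secondary bile acid made by gut bacteria. The deposited design gives a treatment of 16 hours and the methods of the paper give 24 hours. For C57BL/6J mice the methods state an age of 6 to 8 weeks (6 to 14 weeks in the account of the study as a whole), and name both sexes in some places and males alone in another. The sex of the mice behind each library, and whether replicates were separate cultures, are not given in the sources used here, so p-values measure only the spread between these libraries, which may be technical.

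The 4 libraries held 26564059 to 35838342 counts, except for DCA replicate 2 with 244165712. The limit set by a count of 0, taken as 3 counts, was between 0.0820 and 0.115 CPM in the 3 shallower libraries and 0.0125 CPM in DCA replicate 2 (counting error only). All 8 ILC2 markers listed (Gata3, Il1rl1, Klrg1, Rora, Il7r, Il5, Il13 and Areg) were measured, with sums of 12439 and 11089 CPM in vehicle and 12877 and 15177 CPM with DCA. Most of each sum was Il5, at 8858 and 7719 CPM in vehicle and 9953 and 12321 CPM with DCA. Klrg1 and Il1rl1, which encode surface receptors of ILC2s, were lower in both DCA libraries with log2 fold changes of -0.74 and -0.60. They were the 2 markers past an unadjusted p of 0.05 in edgeR (adjusted p = 0.999), and Areg was also lower in both with -0.60. Il7r and Il5 were higher in both, with 0.53 and 0.43. Of the 8 markers, 4 were above 0 and 4 below, with a median of 0.01. The markers Cd4 and Cd8a of T cells and Csf1r and C1qa of macrophages were at 0 in the 4 libraries. Cd3g, another T cell marker, had 11.9 and 25.5 CPM in vehicle and 21.3 and 10.5 CPM with DCA. It made up most of the T cell sum given below. The 5 macrophage markers together reached 24.5 and 23.97 CPM in vehicle and 7.30 and 10.2 CPM with DCA, nearly all of it Cd68, Cd79b of the B cell receptor 55.1 and 47.2 CPM in vehicle and 37.4 and 44.5 CPM with DCA, the 7 T cell markers 14.5 to 26.7 and 11.2 to 21.6 CPM, the 5 epithelial markers 8.20 to 13.5 and 7.73 to 8.98 CPM, and the 4 mast cell and basophil markers 3.50 to 4.62 and 0.349 to 4.70 CPM. The part of other cells in the chaperone values was not tested, and in bulk RNA fewer cells of a type and less RNA per cell cannot be told apart.

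The promoters of the heat-inducible genes carry heat shock elements, inverted repeats of the unit GAA that HSF1 binds, and these are shown because they mark which chaperone genes hold the sequence that defines the heat shock response. Promoters (250 bases before to 50 after a start site, RefSeq, GRCm38.p6) were at hand for 68 of the 84 genes. A run of 3 units (GAANNTTCNNGAA or its reverse complement TTCNNGAANNTTC, so that both strands are covered) was found in 5 of the 68, or 7.35%, against 179 of 27025 genes, or 0.662%. Capitals mark bases in a matching run. The run of Hspe1 (chr1:55088059-55088076, plus strand) lies between the start site of Hspe1 and a divergent start site of Hspd1, reads as the reverse complement from Hspd1, and falls in the 5′ UTR of a longer Hspd1 transcript in GENCODE. The runs of Chordc1 (chr9:18292263-18292285, plus strand), Hsph1 (chr5:149636288-149636300, minus strand) and Dnajb6 (chr5:29735852-29735864, plus strand) also lie in exons that GENCODE counts as 5′ UTR of the same gene, and that of Dnajb6 is also coding sequence of Gm5129 on the other strand.
Hspe1: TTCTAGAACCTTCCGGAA
Chordc1: GAACGTTCGGGAAAATTCCTGAA
Hsph1: TTCTGGAAAGTTC
Dnajb6: GAATCTTCCGGAA

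A pair of units (GAANNTTC or TTCNNGAA, each its own reverse complement, so that both strands are covered, and contained in every run of 3) was found in 22 of the 68 genes, or 32.4%, against 17.0% of all genes. Of those with a pair but no run, 5 genes picked by name are shown. Hspb1, Dnaja4 and Dnajb4 among them had some of the largest differences. The 5 thus do not stand for all genes with a pair, whose median log2 fold change is given below. Bag3, Cct2, Cct5, Cct6a, Dnaja1 and Dnajc10, also described below, had a pair and no run as well. The stretches of Hspa1a (chr17:34972228-34972285, minus strand), Hspa1b (chr17:34959310-34959367, minus strand) and Hspb1 (chr5:135887777-135887854, plus strand) lie outside annotated exons upstream of the start sites. The stretch of Dnajb4 (chr3:152193846-152193884, minus strand) is just before a start site within the gene, and that of Dnaja4 (chr9:54699444-54699514, plus strand) lies in the gene with its last base in a 5′ UTR. Dnajb2 (chr1:75236303-75236405, plus strand) is shown for contrast, since it had the largest difference and no pair of units in its windows.
Hspa1a: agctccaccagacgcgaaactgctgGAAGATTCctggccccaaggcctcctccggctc
Hspa1b: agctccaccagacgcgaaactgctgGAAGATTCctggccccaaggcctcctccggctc
Hspb1: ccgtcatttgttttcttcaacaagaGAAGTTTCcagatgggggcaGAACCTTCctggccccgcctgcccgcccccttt
Dnaja4: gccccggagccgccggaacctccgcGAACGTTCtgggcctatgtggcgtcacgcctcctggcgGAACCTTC
Dnajb4: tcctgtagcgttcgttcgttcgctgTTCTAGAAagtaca
Dnajb2: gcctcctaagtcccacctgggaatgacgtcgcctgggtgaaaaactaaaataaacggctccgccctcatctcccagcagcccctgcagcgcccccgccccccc

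The comparison asked whether the mRNAs of the folding machinery differed in ILC2s given DCA. The chaperone genes made up 1.9% and 2.00% of the counts in the vehicle libraries and 2.04% and 2.07% in the DCA libraries. Their summed level was 18604 and 20286 CPM in vehicle and 20256 and 21011 CPM with DCA, so that the groups overlapped (ratio 1.06, two-sided exact permutation p = 0.667, where the smallest p possible for 2 against 2 is 0.333). None of the 66 genes tested passed an adjusted p of 0.05 in edgeR's quasi-likelihood test over 11184 genes, in which 0% of all genes passed. DESeq2, which the methods of the paper name, called 128 of all genes and 1 chaperone gene, Dnajb2, on the same filtered counts. The lowest adjusted p among the 66 was 0.999. Before adjustment 1 gene passed 0.05, Dnajb2 with the higher level after DCA, against 4.27% of all genes. In the higher direction the share was 1.52% of the chaperone genes and 2.54% of all genes, and in the lower direction 0 chaperone genes and 1.73% of all genes passed.

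**Figure D1:**
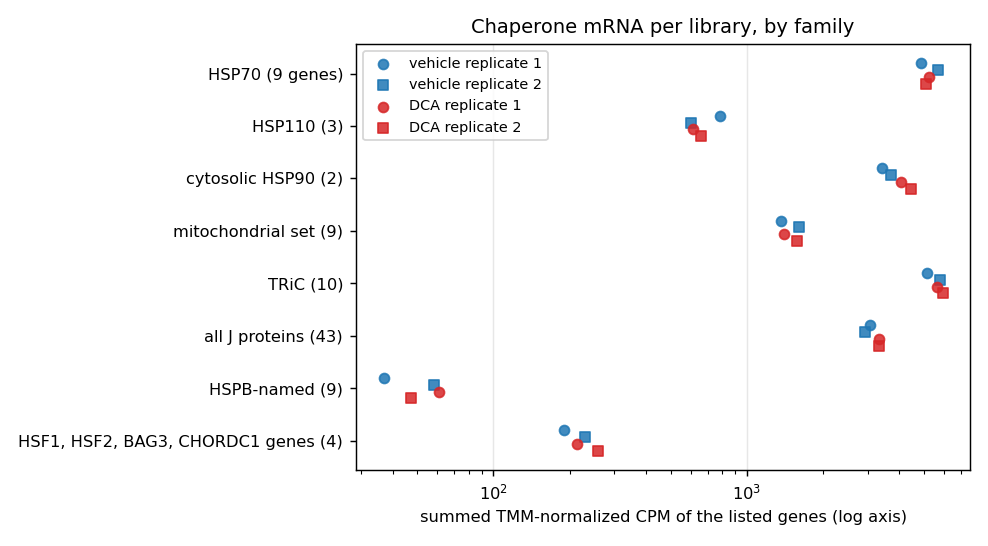
Summed TMM-normalized CPM (log axis) of the genes of each family in the 4 libraries, with circles for replicate 1, squares for replicate 2, blue for vehicle and red for DCA. Both DCA libraries lie above both vehicle libraries for cytosolic HSP90 and for all J proteins, and the libraries overlap in the other families.

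The differences leaned toward higher levels but were small. Of the 66 genes, 44 had a log2 fold change above 0 (66.7%, against 50.7% of all genes), and the median was 0.11 beside 0.01 for all genes tested. In 18 genes (27.3%, against 18.6% of all genes) the DCA libraries both exceeded the vehicle libraries, and in 6 genes (9.09%, against 14.7%) both were below. An absolute log2 fold change over 1 was seen in 6 genes, or 9.09%, against 18.2% of all genes. The lean varied with the library left out, and beside all genes it was gone only without vehicle replicate 1. In that fit the median was 0.05 beside 0.05 for all genes, and 35 genes were above 0. Without vehicle replicate 2 the median was 0.25 beside 0.05 for all genes, and without DCA replicate 1 it was 0.16 beside -0.02. Without DCA replicate 2 it was 0.05 beside -0.04 for all genes, and 38 genes were above 0. The 27 genes with a mean over 100 CPM had a median of 0.04 and lay between -0.26 and 0.48.

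**Figure D2:**
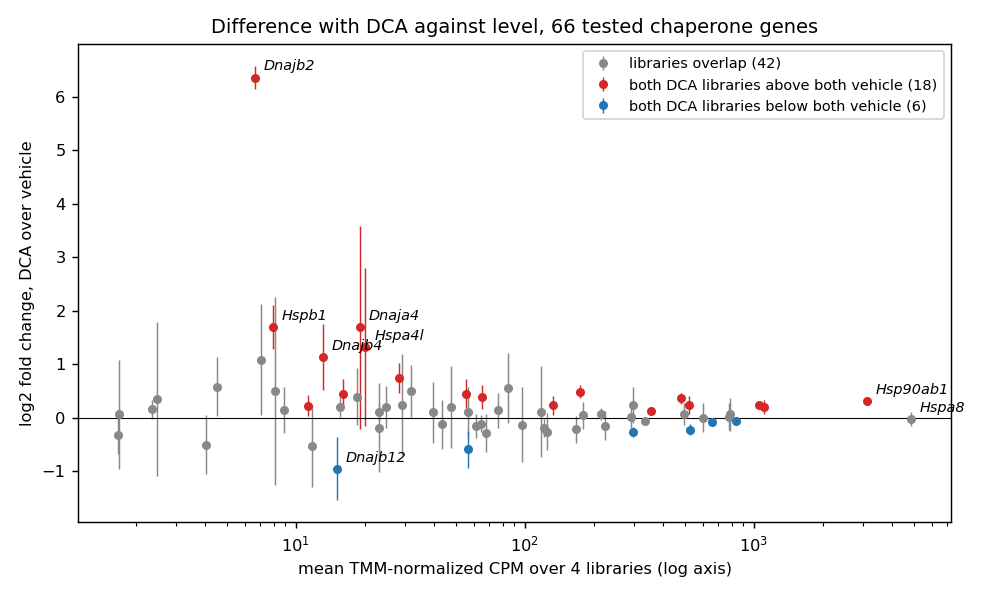
Log2 fold change of DCA over vehicle (edgeR) against the mean TMM-normalized CPM of the 4 libraries (log axis) for the 66 tested chaperone genes, with bars of 1 SE, taken from how log2(CPM + 1) varied between replicates. The bars are thus on another scale than the edgeR fold change, which matters most for genes of few CPM. The 18 genes in red and the 6 in blue have libraries that do not overlap between treatments, and the genes with log2 fold changes over 1 all have means below 100 CPM.

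The cytosolic HSP90 genes were higher in both DCA libraries when their levels were added up. Summed over Hsp90ab1 and Hsp90aa1, the level was 3410 and 3698 CPM in vehicle and 4051 and 4437 CPM with DCA (ratio 1.19, exact permutation p = 0.333). Hsp90ab1, the constitutive cytosolic HSP90, had 2736 and 2832 CPM in vehicle and 3391 and 3491 CPM with DCA. The DCA libraries were the higher ones, and the gap between treatments exceeded the gap within either of them, with a log2 fold change of 0.31 (SE 0.03, edgeR adjusted p = 0.999, 95% interval -0.11 to 0.72). Hsp90aa1, its heat-inducible paralog, had 674 and 866 CPM in vehicle and 660 and 945 CPM with DCA. Here the libraries overlapped, and the log2 fold change was 0.06 (SE 0.32). Per kb of exon, the mean level of Hsp90ab1 was 1038 CPM, next to 1131 CPM for Hspa8.

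The HSP70 family was led by Hspa8, the constitutive HSC70, which had the highest mean level of all chaperone genes. It had 4490 and 5330 CPM in vehicle and 4918 and 4719 CPM with DCA. The DCA libraries fell within the range of the vehicle libraries, with a log2 fold change of -0.03 (SE 0.13, 95% interval -0.46 to 0.41). Hspa14, an HSP70 that works at the ribosome, had 154 and 200 CPM in vehicle and 162 and 203 CPM with DCA (log2 fold change 0.04, SE 0.25). The libraries again overlapped, as they did for Hspa13 and Hspa2, with log2 fold changes of -0.21 and 0.15.

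The stress-inducible HSP70 genes Hspa1a and Hspa1b had no counts in 3 of the 4 libraries. Hspa1b had 0 counts in both vehicle libraries and in DCA replicate 1, and 459 counts (1.91 CPM) in DCA replicate 2. Hspa1a had 0, 0, 0 and 145 counts in the same order, the last being 0.602 CPM. Both genes were thus seen only in DCA replicate 2, the deepest library, at levels above what a count of 0 allows in the other 3, and the replicates with DCA differed from each other. The copies are nearly identical: 247 of the 250 bases upstream of their start sites were equal, and 67.6% of the 31-base words of the Hspa1b transcript were also in Hspa1a, so that reads may be split between them. Neither reached a mean of 1 CPM, and neither was tested.

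HSP110 proteins free HSP70 from ADP. Hspa4, the most abundant of the 3 per kb of exon, had 606 and 529 CPM in vehicle and 475 and 494 CPM with DCA. The DCA libraries were both lower, with a log2 fold change of -0.23 (SE 0.10, 95% interval -0.72 to 0.27). Hsph1, the heat-inducible HSP110, had 173 and 53.3 CPM in vehicle and 112 and 133 CPM with DCA. The vehicle libraries lay on either side of the DCA libraries (log2 fold change 0.11, SE 0.85), so that the sign depended on which of them was used: it was 1.17 without vehicle replicate 1 and -0.50 without vehicle replicate 2. Hspa4l had 70 and 553 counts in vehicle and 789 and 7932 with DCA, or 1.91, 21.1, 24.4 and 33.0 CPM. Both DCA libraries were higher, but the vehicle libraries differed from each other by more than the treatments did, with a log2 fold change of 1.32 (SE 1.48) that was 0.42 without vehicle replicate 1 and 3.91 without vehicle replicate 2.

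TRiC folds actin and tubulin. Its 10 genes summed to 5148 and 5764 CPM in vehicle and 5619 and 5920 CPM with DCA (ratio 1.06, exact permutation p = 0.667), and of the 9 tested the log2 fold changes lay between -0.32 and 0.24. Cct5 had 943 and 1125 CPM in vehicle and 1155 and 1229 CPM with DCA (log2 fold change 0.21, SE 0.13, and 0.06 without vehicle replicate 1). Cct7 had 962 and 971 CPM in vehicle and 1110 and 1177 CPM with DCA (log2 fold change 0.24, SE 0.04, 95% interval -0.21 to 0.69). Both subunits were higher in both DCA libraries, as was Cct6a with a log2 fold change of 0.12. Cct3, in contrast, had 680 and 671 CPM in vehicle and 621 and 656 CPM with DCA (log2 fold change -0.08, SE 0.04). It was lower in both DCA libraries, as was Cct8 with -0.06, while Tcp1, Cct2, Cct4 and the weakly expressed Cct6b overlapped. Of the 9 subunit genes tested, 3 thus had both DCA libraries higher (against 18.6% of all genes) and 2 had both lower (against 14.7%).

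**Figure D3:**
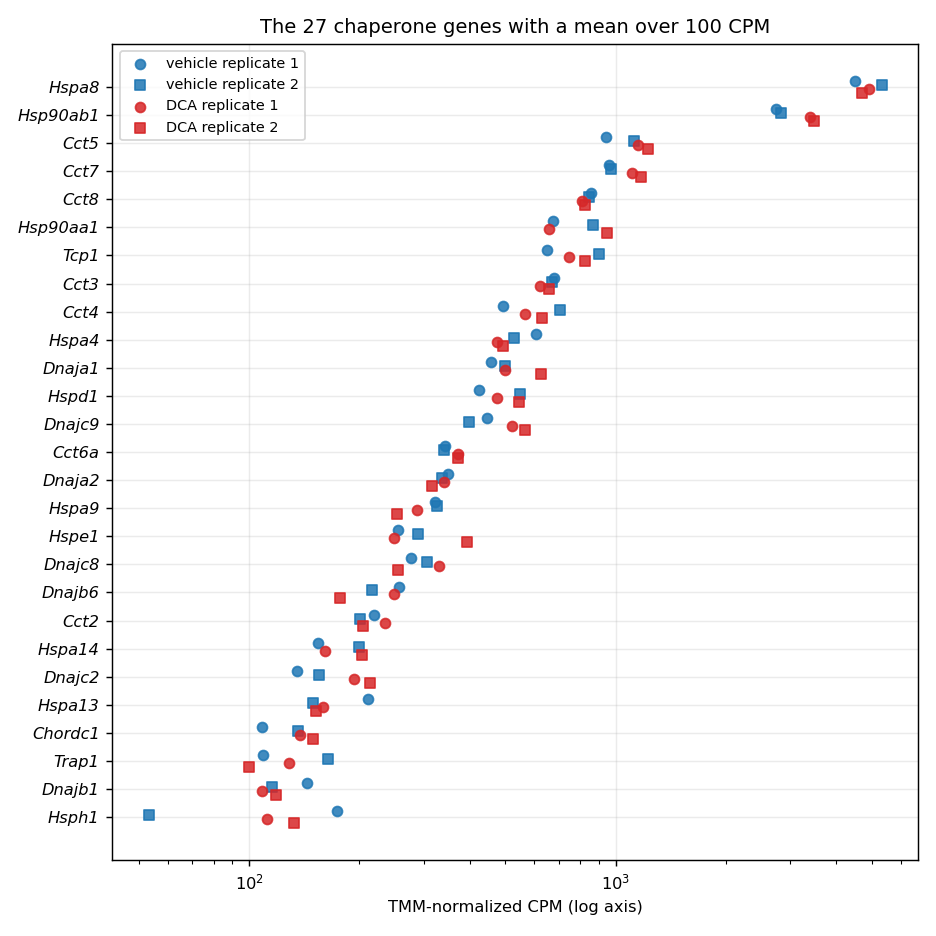
TMM-normalized CPM (log axis) of the 27 chaperone genes with a mean over 100 CPM in each of the 4 libraries, with circles for replicate 1, squares for replicate 2, blue for vehicle and red for DCA. Both DCA libraries are above both vehicle libraries in 8 genes (against 18.6% of all genes) and below them in 4 (against 14.7%). Hsph1 shows the widest gap between the vehicle libraries.

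The mitochondrial chaperones summed to 1363 and 1603 CPM in vehicle and 1397 and 1579 CPM with DCA, with overlapping libraries (ratio 1.00, exact permutation p = 1). Hspd1 and Hspe1, the HSP60 barrel and its HSP10 lid, share the divergent promoter shown above, with the run of 3 units between them. Hspd1 had 425 and 548 CPM in vehicle and 474 and 545 CPM with DCA (log2 fold change 0.07, SE 0.21). Hspe1 had 255 and 290 CPM in vehicle and 248 and 393 CPM with DCA (log2 fold change 0.24, SE 0.34). The treatments overlapped for both, and the genes share 112 bases of exon on opposite strands.

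Hspa9, the mitochondrial HSP70 that pulls proteins through the inner membrane, had 322 and 327 CPM in vehicle and 288 and 253 CPM with DCA. Its DCA libraries were both lower, with a log2 fold change of -0.26 (SE 0.09, 95% interval -0.77 to 0.25). Dnajc11, a J protein of the mitochondrial outer membrane, was also lower, with 52.1 and 83.3 CPM in vehicle and 47.7 and 42.3 CPM with DCA (log2 fold change -0.59, SE 0.34, 95% interval -1.46 to 0.28), and its log2 fold change was -0.21 without vehicle replicate 2. Dnajc15, which assists protein import, went the other way and had 47.5 and 65.0 CPM in vehicle and 75.0 and 71.8 CPM with DCA (log2 fold change 0.38). Trap1, the mitochondrial HSP90, had 109 and 164 CPM in vehicle and 128 and 100.2 CPM with DCA, with overlapping libraries and a log2 fold change of -0.26 (SE 0.34). Of the 9 genes listed as mitochondrial, 6 had log2 fold changes above 0 (against 50.7% of all genes) and 3 below. Dnaja3, Dnajc19 and Dnajc30 overlapped between treatments.

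J proteins carry clients to HSP70 and were the largest family, with 43 genes of which 36 were tested. Their summed level was 3061 and 2921 CPM in vehicle and 3316 and 3311 CPM with DCA (ratio 1.11, exact permutation p = 0.333). The DCA libraries both exceeded the vehicle libraries in 11 genes (against 18.6% of all genes) and both fell short in 2 (against 14.7%). Of the 36 log2 fold changes 26 were above 0 (against 50.7% of all genes), with a median of 0.20. Among the classical cytosolic partners, Dnaja1 had 457 and 498 CPM in vehicle and 499 and 627 CPM with DCA (log2 fold change 0.24, SE 0.18, and 0.06 without DCA replicate 2), with the DCA libraries higher. Dnaja2 had 350 and 336 CPM in vehicle and 341 and 316 CPM with DCA (-0.06, SE 0.06), with libraries that overlapped. Dnajb1, the heat-inducible HSP40 that serves HSP70 in disaggregation, had 144 and 115 CPM in vehicle and 109 and 119 CPM with DCA (-0.19, SE 0.17), and Dnajb6, which keeps polyglutamine proteins soluble, had 256 and 217 CPM in vehicle and 249 and 177 CPM with DCA (-0.15, SE 0.27). Neither separated the treatments.

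Dnajb2 (chr1:75236395-75245692, plus strand), a J protein with ubiquitin-binding motifs best known from neurons, had by far the largest difference. It had 2 and 7 counts in the vehicle libraries and 368 and 3564 counts in the DCA libraries, or 0.0546, 0.267, 11.4 and 14.8 CPM. The vehicle libraries were at or near the level that a count of 0 allows, and both DCA libraries were far above it. The log2 fold change was 6.36 (edgeR unadjusted p = 0.00315, adjusted p = 0.999, 95% interval 3.05 to 9.68). On the log2(CPM + 1) scale the treatment means differed by 3.60 (SE 0.22), a scale that shrinks gaps between levels below 1 CPM. DESeq2, run as an alternative, gave an adjusted p of 0.000111 for it, and over the alternatives that kept the 4 libraries, DESeq2 included, its log2 fold change was between 6.28 and 6.66. The log2 fold change was 5.58 to 7.88 when each library was left out in turn. Its sign could not change in these fits, since the libraries did not overlap between treatments. The gene entered the test only through its DCA libraries, since its mean was 0.161 CPM in vehicle and 13.1 CPM with DCA. Per kb of exon its level with DCA was 2.68 and 3.48 CPM, against 1131 and 1164 CPM for Hsp90ab1.

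Dnaja4, a heat-inducible relative of Dnaja1, rested on 1 vehicle library. It had 645 and 9 counts in vehicle and 888 and 7414 with DCA, or 17.6, 0.344, 27.5 and 30.8 CPM. Vehicle replicate 1 was close to the DCA libraries and vehicle replicate 2 far below, so that the log2 fold change of 1.69 (SE 1.9) was 6.37 without vehicle replicate 1, and 0.73 without vehicle replicate 2. The fit without vehicle replicate 1 gave an edgeR adjusted p of 0.0448, but its vehicle group is then the 1 library with 9 counts, whose spread is assumed to be that of the DCA libraries. Of its exon bases, 44.1% are also exon of Wdr61 on the opposite strand. The cDNA kit does not mark strand, so reads on the shared bases cannot be told apart by strand. How such reads were counted is not given in the sources used here. Wdr61 had 132 and 145 CPM in vehicle and 112 and 161 CPM with DCA, and its part in the counts of Dnaja4 was not tested.

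Dnajb4, a close relative of Dnajb1 with the pair of units shown above, had 4.51 and 11.9 CPM in vehicle and 17.97 and 18.01 CPM with DCA. The DCA libraries were both higher (log2 fold change 1.13, SE 0.61, 95% interval -0.63 to 2.89), and the vehicle libraries differed by about as much as the treatments. Dnajb12, an ER membrane J protein, had the lowest fold change of all chaperone genes, with 12.2 and 27.7 CPM in vehicle and 8.75 and 11.8 CPM with DCA (-0.96, SE 0.59, 95% interval -2.56 to 0.65). Without vehicle replicate 2 its log2 fold change was -0.25. Its neighbour in function Dnajb14 was higher, with 21.8 and 20.4 CPM in vehicle and 42.4 and 28.5 CPM with DCA (0.75, SE 0.28). In the ER lumen and membrane, Dnajc1 had 97.2 and 39.8 CPM in vehicle and 110 and 90.6 CPM with DCA (0.55, SE 0.65). The disulfide reductase Dnajc10 had 59.9 and 69.3 CPM in vehicle and 66.3 and 50.0 CPM with DCA (-0.15, SE 0.23), and both overlapped. Dnajb9 had 53.3 and 40.6 CPM in vehicle and 73.0 and 55.3 CPM with DCA (0.45, SE 0.28, 95% interval -0.37 to 1.27). Of the 7 ER J proteins listed, 2 had both DCA libraries higher (against 18.6% of all genes) and 1 both lower (against 14.7%).

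**Figure D4:**
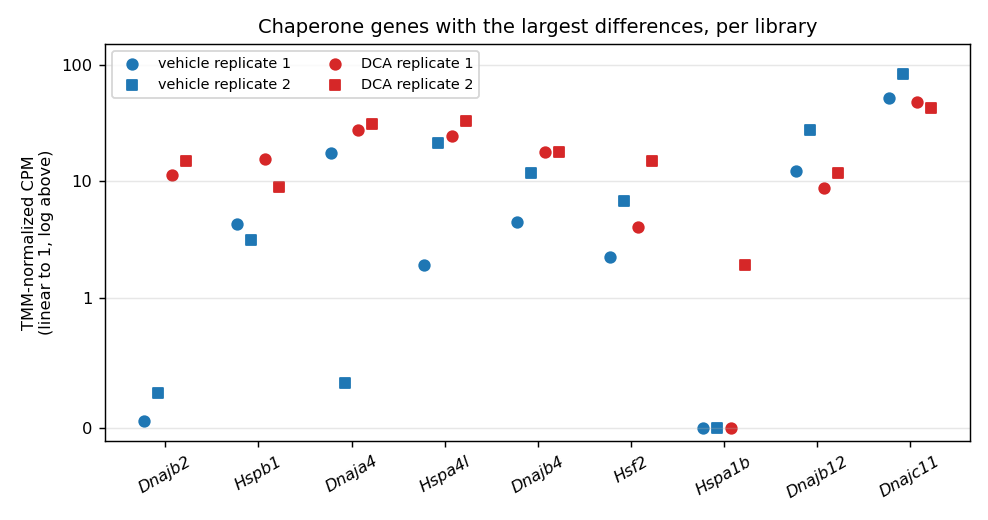
TMM-normalized CPM (linear up to 1, logarithmic above) of 9 chaperone genes with large differences, in each of the 4 libraries. Only in Dnajb2 are both vehicle libraries below 1 CPM and both DCA libraries above 10 CPM, while Dnaja4 and Hspa4l each have 1 vehicle library near the DCA libraries.

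Of the 14 tested Dnajc genes in neither the ER nor the mitochondrial list, 13 had log2 fold changes above 0 (against 50.7% of all genes). None of the 14 passed the unadjusted threshold. Dnajc9, which binds histones H3 and H4 and is used in dividing cells, had 445 and 397 CPM in vehicle and 521 and 565 CPM with DCA. Its DCA libraries were both higher (log2 fold change 0.37, SE 0.10, 95% interval -0.13 to 0.86). Dnajc2, the ribosome-bound partner of Hspa14, had 135 and 155 CPM in vehicle and 194 and 213 CPM with DCA, the largest difference among the genes over 100 CPM (log2 fold change 0.48, SE 0.12, edgeR adjusted p = 0.999, 95% interval -0.07 to 1.04). Dnajc2 was singled out after its values were seen. Dnajc8, a J protein linked to splicing, had 276 and 307 CPM in vehicle and 330 and 255 CPM with DCA, or a log2 fold change of 0.00 to 2 decimals (SE 0.20). Dnajb13, a sperm axoneme protein, had 56.8 to 92.0 CPM in the 4 libraries. Of its exon bases 11.2% are shared on the opposite strand with Ucp2, which stood at 1334 to 1613 CPM. Reads on the shared bases cannot be told apart, since the cDNA kit does not mark strand. In all, 23 of the 84 chaperone genes share exon bases with a protein-coding gene on the opposite strand.

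Small heat shock proteins hold unfolded proteins without ATP. Of the 9 HSPB-named genes 4 were tested, and their sum was 36.9 and 58.4 CPM in vehicle and 60.9 and 47.1 CPM with DCA. Hspb1 (HSP27), with pairs of units in its promoter as shown above, had 158 and 83 counts in vehicle and 500 and 2138 with DCA, or 4.32, 3.17, 15.5 and 8.88 CPM. The DCA libraries were both higher, and the treatments differed by more than the replicates of either, with a log2 fold change of 1.70 (SE 0.41, edgeR adjusted p = 0.999, 95% interval -0.43 to 3.83). Hspb11, a component of ciliary transport despite its name, had 14.2 and 14.96 CPM in vehicle and 14.6 and 18.9 CPM with DCA (0.20, SE 0.18). Hspbap1, which binds HSPB1, had 11.9 and 37.1 CPM in vehicle and 26.3 and 16.9 CPM with DCA (-0.18, SE 0.84), and neither separated the treatments.

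Of the 4 regulators and cochaperones in the set, 1 had both DCA libraries higher (against 18.6% of all genes). Both were lower in 0 of them (against 14.7%). Hsf1, the master regulator of the heat shock response, had 60.7 and 72.6 CPM in vehicle and 57.6 and 65.7 CPM with DCA (log2 fold change -0.11, SE 0.16). Hsf2, its relative in development, had 2.24 and 6.795 CPM in vehicle and 4.08 and 15.1 CPM with DCA (1.09, SE 1.04), and turned to -0.14 without DCA replicate 2. Bag3, an HSP70 exchange factor that is a sensitive HSF1 target, had 18.5 and 13.6 CPM in vehicle and 13.9 and 28.2 CPM with DCA (0.40, SE 0.53). For all 3 the libraries overlapped. Chordc1, a partner of HSP90 with the longest run of units above, had 108 and 136 CPM in vehicle and 138 and 149 CPM with DCA (0.23, SE 0.17, and 0.05 without vehicle replicate 1), with both DCA libraries higher.

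The spread between vehicle replicates was as large as most differences. On the log2(CPM + 1) scale the vehicle libraries differed from each other by more than the treatment means did in 46 of the 66 genes, or 69.7%, as in 64.9% of all genes. The same held for the DCA libraries in 34 genes, or 51.5%, and in 54.7% of all genes. The vehicle gap was over 1 in 15 chaperone genes and in 1 of the 27 genes over 100 CPM. For those 27 the 95% interval of the log2 fold change reached a median of 0.55 to either side of the estimate. Over all 66 it reached 0.92, and differences much smaller than these were not detectable with these libraries. The intervals are not adjusted for the number of genes tested. After adjustment larger differences also went uncalled in edgeR, up to the log2 fold change of 6.36 of Dnajb2.

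**Figure D5:**
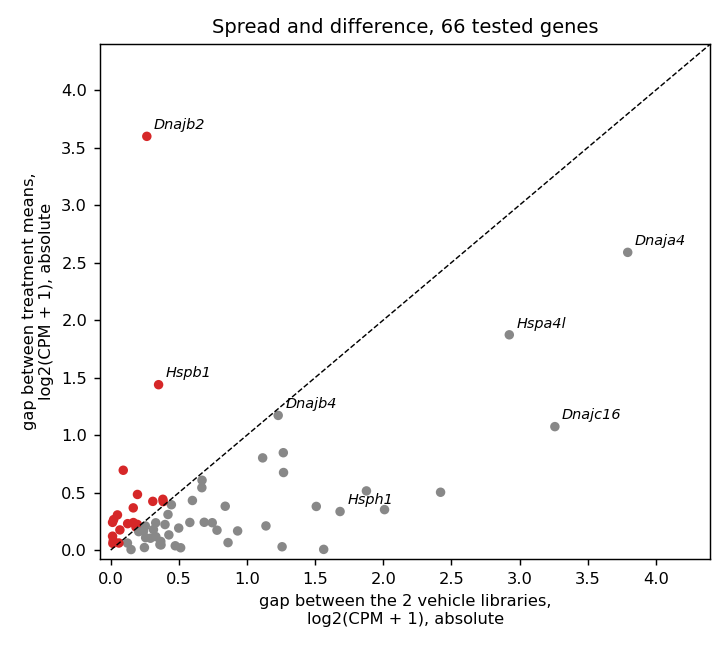
Absolute gap between the treatment means against the absolute gap between the vehicle libraries, both on the log2(CPM + 1) scale, for the 66 tested chaperone genes, with the dashed line at equal gaps. The 46 genes in grey have the larger gap between vehicle libraries, and Dnajb2 and Hspb1 lie farthest above the line.

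Genes with and without a pair of heat shock units had like medians. Of the genes with a pair of units 16 were tested, with a median log2 fold change of 0.16 and 13 above 0 (against 50.7% of all genes). Both DCA libraries were higher in 7 of them (against 18.6% of all genes) and lower in 0 (against 14.7%). The 37 tested genes with a promoter and no pair had a median of 0.16, 25 above 0, and both DCA libraries higher in 9 and lower in 4. The 5 genes with a run of 3 units lay between -0.15 and 0.24. A wider list of 22 HSF1-inducible genes, which shares most of its genes with those above, had 18 tested, with a median of 0.22. Of the 18, 15 were above 0 (against 50.7% of all genes). Both DCA libraries were higher in 8 (against 18.6% of all genes) and lower in 0 (against 14.7%). The sum of this wider list was 10948 and 12307 CPM in vehicle and 12344 and 12867 CPM with DCA (ratio 1.08, exact permutation p = 0.333), and 0 of its genes passed an unadjusted p of 0.05 in edgeR. Hspa1a, Hspa1b and Hspb8, which are induced strongly by heat, had 0 or at most 459 counts in any library.

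Partners of the chaperones outside the set had small median differences, and 0 of the genes in these lists passed an unadjusted p of 0.05 in edgeR. The 17 HSP90 cochaperones, which feed clients into HSP90 and time its cycle, had a median log2 fold change of 0.20 with 13 above 0 (against 50.7% of all genes). They summed to 3026 and 3143 CPM in vehicle and 3506 and 3363 CPM with DCA (ratio 1.11, exact permutation p = 0.333). The 9 tested HSP70 cochaperones had a median of -0.03, the 9 genes of prefoldin and TRiC cofactors 0.20, and the 14 genes of mitochondrial protein quality control 0.18. The 14 ER lumen chaperones, among them the Hspa5, Dnajb11 and Dnajc3 left out above, had a median of 0.00 to 2 decimals and summed to 10034 and 10254 CPM in vehicle and 9818 and 9627 CPM with DCA (ratio 0.958, exact permutation p = 0.333). Their sum was thus lower in both DCA libraries and that of HSP90 higher, a contrast that was not tested.

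The remaining 18 chaperone genes were below a mean of 1 CPM. For 7 of them (Hspb3, Hspb7, Dnajb8, Dnajc5b, Dnajc5g, Dnajc6 and Cct8l1) no read was counted in any library, and Hspb9, Hspb8, Dnajb7 and Hspa12a had at most 8 counts in any library. Hspb2 had 25 counts, and Dnajc22, Dnajc28 and Hspa12b had 243, 218 and 126 counts, all in DCA replicate 2 alone, while Hspa1l had 10 counts in vehicle replicate 1 and 129 in DCA replicate 2. DCA replicate 2 was the deepest library and listed 75 of the 84 genes, against 67 or 68 in the others.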

How the data were processed

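ILC2 RNA-Seq of 2 vehicle and 2 DCA libraries was analysed. Per the labels and the paper's methods, the authors made cDNA with a SMART-Seq HT kit, which does not mark strand, used Cutadapt 1.9 for trimming of the paired reads and HISAT2 2.2.1 for alignment (build mm10), and named DESeq2 for finding changed genes. The counting tool, its annotation and strand setting are not given in the sources used here. The deposited table is named for FPKM but holds whole-number read counts per gene, 27179 rows with Entrez identifiers. In 1275 rows the symbol is missing (0.137% to 0.173% of counts), and these were kept.

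Libraries were grouped by their labels. edgeR 4.0.16 in R 4.3.3 (TMM normalization, two-sided quasi-likelihood test, Benjamini-Hochberg adjustment over all genes tested) compared DCA with vehicle wherever the mean reached 1 CPM. SEs come from the spread of log2(CPM + 1), which is not the scale of the edgeR log2 fold change, and this matters most for genes of few CPM. The 95% intervals come from the quasi-likelihood fit. CPM per kb uses GENCODE vM21 exons, and positions of genes are those of RefSeq (GRCm38.p6). The list of B cell markers is not reported here in full. The code was checked on simulated counts.

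The genes named are those past an unadjusted p of 0.05, the 2 of highest mean in each family, stress-inducible genes and regulators (Hspa1a, Hspa1b, Hsph1, Dnajb1, Bag3, Hsf1, Hsf2, Trap1, Hspa9, Hspd1 and Hspe1), and up to 5 per direction with the largest fold change among those whose libraries did not overlap. Dnajc2, Dnajb13, Dnajb14, Dnajc15 and others named with a value outside this rule were chosen after their values were seen. The members and lists were chosen with earlier results of these data known. Alternatives were total-count scaling, median-of-ratios scaling, no filter, a mean of at least 5 CPM, DESeq2 1.42.0, the replicate number as a block, DCA replicate 2 thinned to the mean total of the others, leaving out each library (the treatment then left with 1 library is assumed to vary like the other), the set without its ER genes, and Hspa1a and Hspa1b summed.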

Additional observations from a re-analysis of the deposited data

How the results depend on the processing

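Over all genes tested, 0 passed an adjusted p of 0.05 in edgeR (478 passed an unadjusted 0.05), whereas 36 did with no filter on low values (17706 genes tested) and 128 did in DESeq2 (85 higher, 43 lower). Leaving out each library in turn gave 0 to 20, in fits where 1 treatment has a single library and the spread comes from the other alone. Of the chaperone genes, 0 passed, 1 did in DESeq2 (Dnajb2), and 0 to 1 did when each library was left out (Dnaja4 without vehicle replicate 1). At an unadjusted 0.05 the count was 1, with no filter 2 (Dnaja4 and Dnajb2), and 1 to 8 when each library was left out, with 8 without vehicle replicate 1 (Dnaja3, Dnaja4, Dnajb12, Dnajb2, Dnajc1, Dnajc11, Dnajc21 and Hsph1) and 5 without vehicle replicate 2 (Dnajb2, Dnajb4, Dnajb5, Dnajc16 and Hspa4l), and Dnajb2 was in each of these lists. Without vehicle replicate 1, and likewise without vehicle replicate 2, a smaller share of chaperone genes than of all genes passed the unadjusted 0.05. The longer lists from these fits thus do not set the chaperone genes apart from other genes. The median log2 fold change of the chaperone genes, 0.11, moved between 0.09 and 0.18 under the alternatives that kept all libraries. It was 0.13 without the listed ER genes, and lay between 0.0495 and 0.25 when each library was left out.

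Samples share a replicate number, but deviations from the group means of same-numbered samples correlated at only 0.0197, so the numbers were not taken as pairs. With the replicate block 0 genes and 0 chaperone genes passed the adjusted threshold, 1 chaperone gene passed the unadjusted one, and the median was 0.18 beside 0.06 for all genes.

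Log2 fold changes near 0 changed sign. That of Dnajc8 (0.00 to 2 decimals) was -0.0212 with median-of-ratios scaling, -0.02125 with DESeq2, -0.0021 with total counts, -0.0048 with the block and -0.0026 with DCA replicate 2 thinned, and that of Hspbap1 was 0.00023 with the block. When each library was left out in turn, the ranges that crossed 0 were -0.20 to 0.18 for Dnajc8, -0.22 to 0.29 for Hsp90aa1, -0.16 to 0.24 for Hspa14, -0.13 to 0.26 for Hspd1, -0.26 to 0.0254 for Hsf1, -0.17 to 0.10 for Hspa8, -0.81 to 0.86 for Hspbap1, -0.50 to 1.17 for Hsph1, -0.55 to 0.0623 for Trap1, -0.20 to 0.82 for Bag3, -0.42 to 0.0755 for Dnajb6, -0.38 to 0.0387 for Dnajc10, -0.14 to 2.10 for Hsf2 and -0.13 to 0.52 for Hspe1. Ranges that kept their sign but moved by over 1.5 times were 0.06 to 0.34 for Cct5, -0.12 to -0.05 for Cct3, 0.05 to 0.41 for Chordc1, 0.06 to 0.39 for Dnaja1, -0.12 to -0.0052 for Dnaja2, 0.73 to 6.37 for Dnaja4, -0.33 to -0.05 for Dnajb1, -1.45 to -0.25 for Dnajb12, 0.57 to 2.00 for Dnajb4, 0.05 to 1.31 for Dnajc1, -0.92 to -0.21 for Dnajc11, 0.42 to 3.91 for Hspa4l, -0.37 to -0.17 for Hspa9 and 0.0011 to 0.37 for Hspb11. The causes were not tested. Hspa1a and Hspa1b summed stayed below a mean of 1 CPM and gave no value. With 2 libraries per treatment, differences smaller than the intervals given were not detectable. Larger ones could also go uncalled, since the intervals are not adjusted for the number of genes tested.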
